A study of Homo sapiens with 2 samples.

Results

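The HSP40 or DNAJ family of J-domain co-chaperones was examined in MDA-MB-231 cells with RNA sequencing of 2 libraries. These cells are a long-established human line of triple-negative breast cancer. The CEL library came from a culture kept for 24 h with 1 µM of an agent that the labels name only as CEL, and the Control library from a culture kept for 24 h without it. The labels do not say whether the Control medium held a vehicle. Each group was 1 library of 1 line with no replicate, so no difference below has a replicate check or a test, and every statement compares these 2 libraries. Members were rows of the deposited expression table, chosen by gene name. The name had to be DNAJ, a class letter A, B or C, a number and at most 1 further letter. This left out rows named as pseudogenes, antisense RNAs or readthrough genes. The rule gave 45 genes among the 60978 rows of the table, 4 in class A, 13 in class B and 28 in class C.

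J-domain proteins carry a helical J domain with a conserved histidine, proline and aspartate motif that makes HSP70 hydrolyse ATP and close on its substrate. Nucleotide exchange factors then reopen HSP70, so that J proteins choose where and on which client the HSP70 cycle runs. Class A proteins resemble bacterial DnaJ with its zinc-binding region, class B proteins have a glycine- and phenylalanine-rich stretch after an amino-terminal J domain, and class C proteins share only the J domain and are mostly specialised for 1 task or organelle. In cancer cells, which carry a heavy load of misfolded protein, HSP70 and its J proteins are widely studied as folding and degradation factors.

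Levels are FPKM as deposited by the authors, that is reads scaled to gene length and to the library's reads in genes. The CEL library held 17199398 reads in genes and the Control library 14821148, so 1 read of a 1 kb gene was worth 0.0581 FPKM in CEL and 0.0675 FPKM in Control. Mitochondrially encoded genes took 4.06% of the CEL reads and 7.14% of the Control reads. The part of this difference in the FPKM of the other genes was not tested. All 7 genes listed as present in this line, among them VIM, CD44 and AXL, were between 231 and 1024 FPKM in CEL and between 145 and 928 FPKM in Control. The 5 luminal or epithelial genes summed to 57.9 FPKM in CEL and 89.7 FPKM in Control. Of these, ESR1 and PGR had 0 reads in both libraries, and CDH1 had 0.183 FPKM in CEL and 0.791 FPKM in Control. EPCAM had 8.97 FPKM in CEL and 17.2 FPKM in Control, and ERBB2 had 48.8 FPKM in CEL and 71.7 FPKM in Control. The 9 macrophage and leukocyte genes summed to 4.69 FPKM in CEL and 6.03 FPKM in Control. Among them 6 were under 1 FPKM in both libraries, and only CD163 was at 0 in both. CSF1R was the highest, at 1.81 FPKM in CEL and 2.78 FPKM in Control. In a bulk library, fewer cells of a type and less RNA per cell cannot be told apart.

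The family was broadly expressed and its members were close in level between the libraries. Of the 45 members, 36 reached 1 FPKM in at least 1 library and are called measured here, and 9 did not. Only DNAJB4 and DNAJC25 were at least 1.5-fold higher in CEL on the scale log2((CEL FPKM + 1)/(Control FPKM + 1)), and 0 members were at least 1.5-fold lower. These are 2 of 36 measured members, against 8.97% of all 13745 measured genes that were higher by this rule and 10.2% that were lower. The share of members called was thus no larger than that of all genes. The median log2 difference of the measured members was 0.14, with quartiles of −0.10 and 0.31, beside a median of 0.00 and quartiles of −0.29 and 0.28 over all measured genes. A difference above 0 was found for 25 members and below 0 for 11, where 50.2% of all measured genes were above 0 and 49.8% below. At a 2-fold rule 0 members were called, against 2.7% of all measured genes higher and 3.24% lower. The 28 members that reached 10 FPKM in either library had a median of 0.19, beside 0.05 over the 8377 genes of that level.

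A ratio of FPKM for single genes is given with its exact conditional binomial 95% interval from the whole reads recovered from the table. PCR reads are not independent molecules, so these intervals cover counting error only. The interval lay above 1 for 19 measured members, below 1 for 4 and held 1 for 13. Over all measured genes it lay above 1 for 29.9% and below 1 for 29.1%. Intervals are narrower for abundant genes. Among the 28 members that reached 10 FPKM in either library, the interval lay above 1 for 19 and below 1 for 2. Of all 8377 genes of that level, 3404 had an interval above 1 and 2704 one below 1. The 4 measured members below 1 were DNAJB5, DNAJC10, DNAJC13 and DNAJC22.

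**Figure D1:**
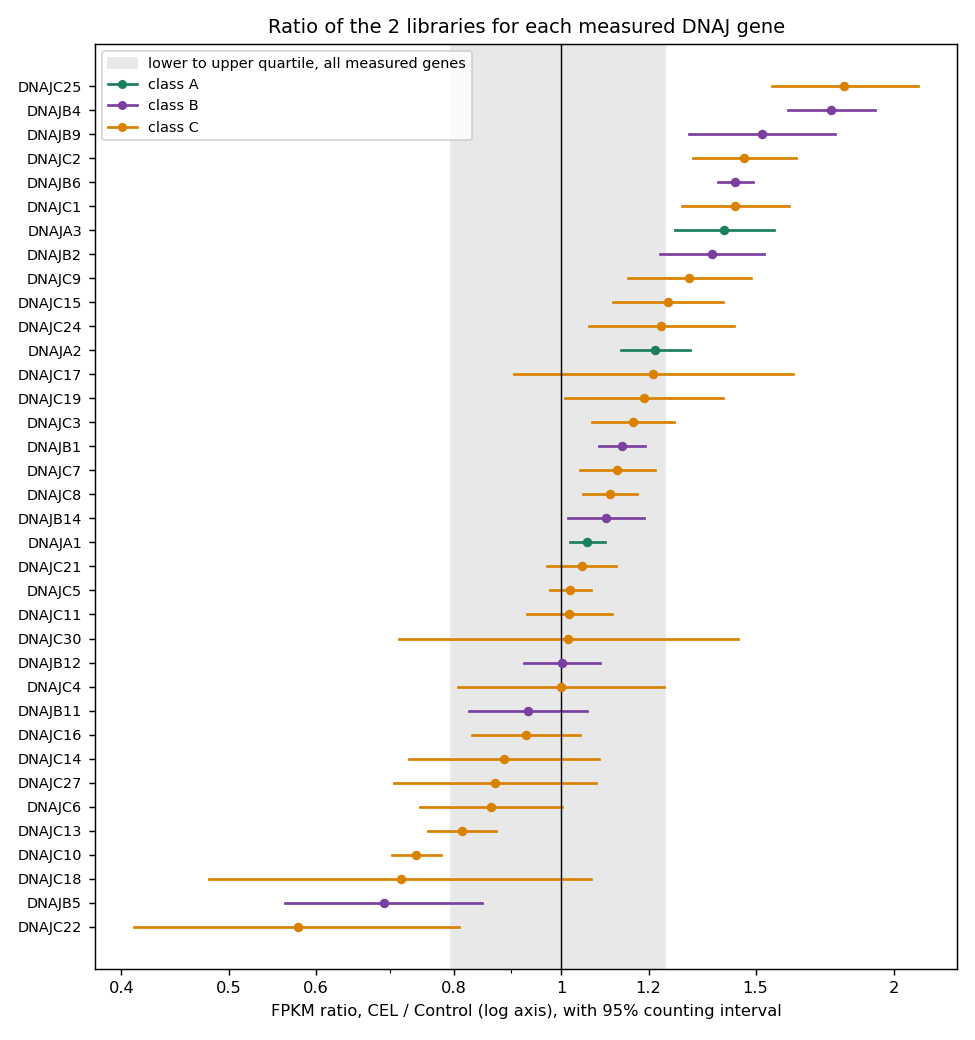
FPKM ratio of CEL over Control on a log axis for the 36 measured DNAJ genes, with points for the ratio, bars for the 95% counting interval, colours for class A, B and C, and a grey band from the lower to the upper quartile over all measured genes. DNAJC25 and DNAJB4 sit highest at 1.81 and 1.76, and DNAJC22 sits lowest at 0.578.

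The summed level of all 45 members was 1913 FPKM in CEL and 1651 FPKM in Control, a ratio of 1.16. Over all named genes the same sum had a ratio of 1.03. The 5 members of highest mean level, DNAJA1, DNAJB6, DNAJB1, DNAJC8 and DNAJB4, made up 59.1% of the summed level in CEL and 57.2% in Control. DNAJA1 led in both libraries. DNAJB6 had rank 2 in CEL and rank 3 in Control, and DNAJB1 rank 3 in CEL and rank 2 in Control. DNAJB4 had rank 5 in CEL and rank 11 in Control. Class B took 40.9% of the summed level in CEL and 36.9% in Control, class A 22.7% in CEL and 23.8% in Control, and class C 36.4% in CEL and 39.2% in Control. By class, the median log2 difference was 0.28 for the 3 measured members of class A, 0.18 for the 9 of class B and 0.04 for the 24 of class C. These medians rest on few genes and were not tested against each other.

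**Figure D2:**
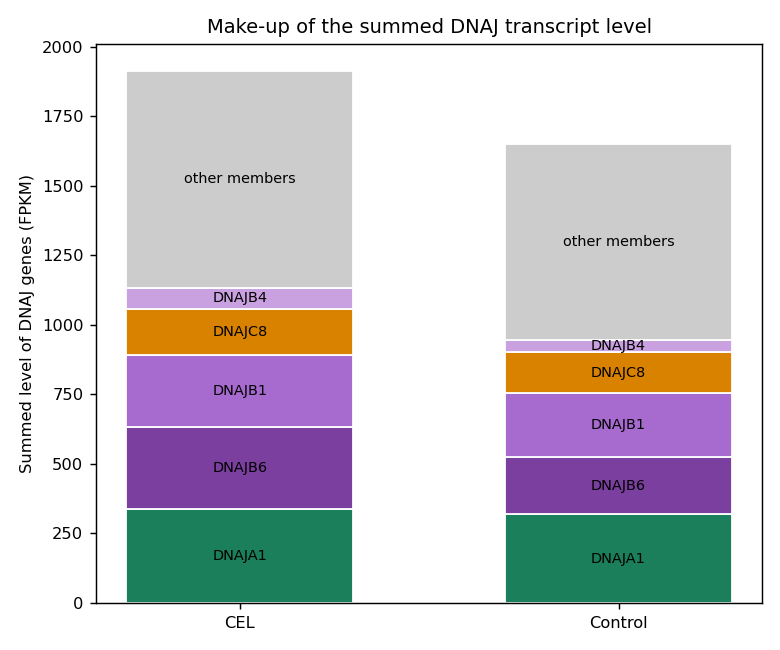
Summed FPKM of all 45 DNAJ genes in the CEL and Control libraries (1 library each), stacked by the 5 most abundant members and the rest. The bar reaches 1913 FPKM in CEL and 1651 FPKM in Control, with DNAJA1 the largest single part of both.

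The general co-chaperones of cytosolic HSP70 include the most abundant members. DNAJB4 (ENSG00000162616, GRCh38 chromosome 1, 77979175 to 78017964, plus strand), a cytosolic class B protein close to DNAJB1, stood at 73.4 FPKM (1441 reads) in CEL and 41.8 FPKM (707 reads) in Control. Its ratio was 1.76 (1.60 to 1.92) and its log2 difference 0.80, the largest of the family. DNAJA1 (ENSG00000086061), a farnesylated class A partner of HSP70 in general folding, had 336 FPKM (6609 reads) in CEL and 318 FPKM (5393 reads) in Control, a ratio of 1.06 (1.02 to 1.09). DNAJB1 (ENSG00000132002), the classic heat-inducible HSP40 that works with HSP70 in disaggregation, had 259 FPKM (3800 reads) in CEL and 228 FPKM (2884 reads) in Control, a ratio of 1.14 (1.08 to 1.19). Among these abundant cytosolic members, then, DNAJB4 differed most between the libraries and DNAJA1 least. DNAJA2, which joins DNAJB1 in protein disaggregation, stood at 55.1 FPKM in CEL and 45.2 FPKM in Control. DNAJB5, a relative of DNAJB1 and DNAJB4, was one of the few members with a counting interval below 1, at 5.17 FPKM (174 reads) in CEL and 7.48 FPKM (217 reads) in Control, ratio 0.691 (0.563 to 0.847). DNAJA4, a further class A member, was under 1 FPKM in both libraries with 15 reads in CEL and 2 in Control. Its ratio of 6.46 had an interval of 1.503 to 58.2.

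DNAJB6 and DNAJB2 bind aggregation-prone clients, and DNAJB2 also links HSP70 to the proteasome through ubiquitin-binding motifs. DNAJB6 (ENSG00000105993) had 297 FPKM (7790 reads) in CEL and 206 FPKM (4667 reads) in Control, a ratio of 1.44 (1.39 to 1.49) and a log2 difference of 0.52, short of the 1.5-fold rule at 0.585. DNAJB2 had 42.7 FPKM in CEL and 31.2 FPKM in Control, a ratio of 1.37 (1.23 to 1.53). Both stood above their Control level by more than counting error. DNAJB3, DNAJB7 and DNAJB8 of this group were not measured. DNAJB3, which the GENCODE annotation lists as a transcribed processed pseudogene, and DNAJB8 had 0 reads in both libraries, and DNAJB7 had 0 in CEL and 1 in Control.

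**Figure D3:**
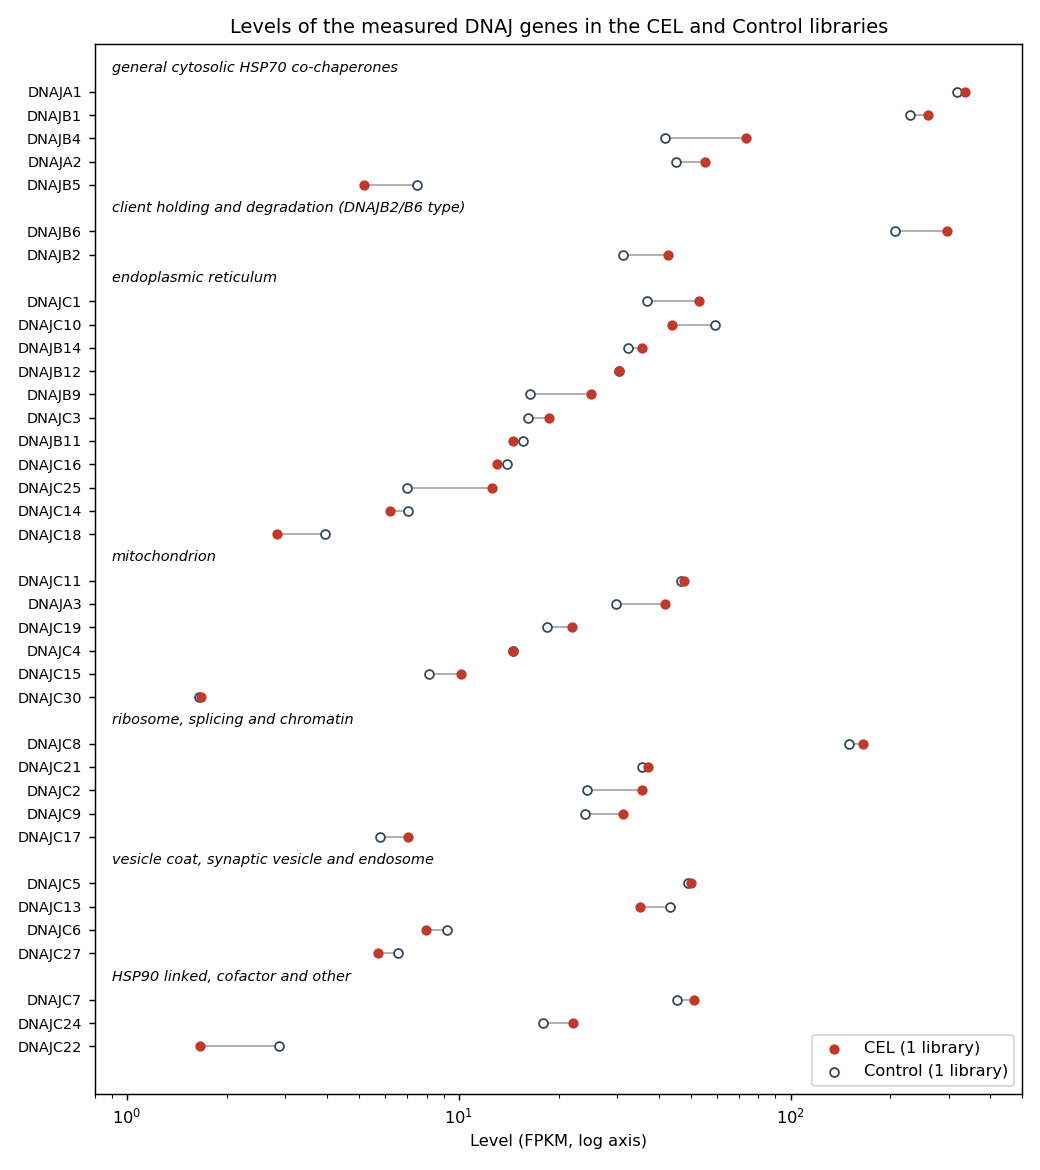
FPKM of the 36 measured DNAJ genes on a log axis, filled points for CEL and open points for Control (1 library each), grouped by role. Levels run from 1.66 FPKM for DNAJC22 to 336 FPKM for DNAJA1 in CEL, and the widest gaps in this view are those of DNAJC25, DNAJB4 and DNAJC22.

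Because the heat shock factor HSF1 drives several J-protein genes, the promoters of the members were searched for its site. HSF1 binds repeats of GAA in alternating orientation. RefSeq promoters (GRCh38.p14, 250 bases before to 50 after a transcript start) were at hand for 40 of the 45 members, 52 promoters in all. A run of 3 units, GAANNTTC followed by any 2 bases and GAA on either strand, was found in 2 of the 52, those of DNAJA1 and DNAJB6, and in 0.49% of all 35116 promoters. A pair of units, GAANNTTC or TTCNNGAA, which every run of 3 also contains, was found in 9 of the 52, which belong to 8 genes. This was 17.3% of the member promoters, near the 13.5% of all promoters. The antioxidant response element core TGACNNNGC on either strand was in 5 of the 52 and in 13.3% of all promoters. The endoplasmic reticulum stress element (CCAAT and CCACG with 9 bases between them) on either strand was in 0 of the 52 and in 0.0769% of all promoters. The stretches below show heat shock matches in the 3 most abundant members and in DNAJB4. DNAJB4 had the largest log2 difference with a pseudocount of 1 FPKM, though not the largest ratio. The first 3 are the 250 bases before a transcript start and DNAJA1 is a short stretch just after its start, with heat shock repeats in capitals, all 5′ to 3′ on the gene's strand.
DNAJB4, chr1:78004689-78004938, plus strand: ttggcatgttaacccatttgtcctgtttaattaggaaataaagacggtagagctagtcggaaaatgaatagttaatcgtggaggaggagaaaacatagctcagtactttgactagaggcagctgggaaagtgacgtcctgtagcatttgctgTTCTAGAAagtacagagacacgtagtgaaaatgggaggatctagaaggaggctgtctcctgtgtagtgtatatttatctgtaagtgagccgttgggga
DNAJB6, chr7:157336754-157337003, plus strand: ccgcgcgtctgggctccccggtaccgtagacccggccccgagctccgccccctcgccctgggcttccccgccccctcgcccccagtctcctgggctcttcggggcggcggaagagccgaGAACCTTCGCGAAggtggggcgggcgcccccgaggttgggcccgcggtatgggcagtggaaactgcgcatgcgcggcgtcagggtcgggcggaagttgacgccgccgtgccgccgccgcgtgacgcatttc
DNAJB1, chr19:14518398-14518647, minus strand: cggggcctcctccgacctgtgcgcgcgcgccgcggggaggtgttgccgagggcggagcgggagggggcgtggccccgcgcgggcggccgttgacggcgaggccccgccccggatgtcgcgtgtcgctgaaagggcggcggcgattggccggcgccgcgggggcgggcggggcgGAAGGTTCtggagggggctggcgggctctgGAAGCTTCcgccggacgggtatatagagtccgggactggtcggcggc
DNAJA1, match from base 4 of the transcript, within chr9:33025023-33025322, plus strand: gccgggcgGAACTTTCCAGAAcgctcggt
The DNAJB4 stretch lies before the second of its 2 RefSeq starts, at 78004939, and the stretch before the first start, at the deposited gene start of 77979175, held no match. DNAJB1 has 3 RefSeq starts, and the one shown holds pairs at positions −77 and −47 from it. A further pair lies at base 2 of another DNAJB1 transcript, and DNAJA1 has one at −198, and neither is shown. In DNAJB6 the run of 3 begins at −131. DNAJC25, the other member called higher and the one with the largest ratio (1.81), had no match to any of the 4 motifs in its window. DNAJA4, DNAJB7, DNAJC6 and DNAJC15 also had a pair and are not shown. The members with a pair of units had ratios from 0.864 for DNAJC6 to 1.76 for DNAJB4 among those measured. A match of letters is a description and does not show that a factor binds there.

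Several J proteins of the endoplasmic reticulum, though not all, fold secreted proteins with the HSP70 protein HSPA5 (BiP) or send them for degradation. All 11 members of this group were measured, with 6 log2 differences above 0, 5 below and a median of 0.00. DNAJC25 (ENSG00000059769, GRCh38 chromosome 9, 111631334 to 111654351, plus strand), a predicted membrane protein listed here with this compartment, stood at 12.6 FPKM (530 reads) in CEL and 6.97 FPKM (253 reads) in Control. Its ratio was 1.81 (1.55 to 2.11) and its log2 difference 0.77. It shares 13.8% of its exonic bases with the readthrough gene DNAJC25-GNG10, which had 0 reads in both libraries, so its value is uncertain by what the authors' counting did with reads in the shared part.

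DNAJB9 (ERdj4), which is induced by the unfolded protein response and targets misfolded proteins for degradation, had 24.99 FPKM (478 reads) in CEL and 16.4 FPKM (271 reads) in Control. Its plain ratio was 1.52 (1.31 to 1.77), while its log2 difference of 0.575 lay just short of 0.585. DNAJC1, a membrane protein that binds BiP and ribosomes, had 53.0 FPKM (839 reads) in CEL and 36.9 FPKM (503 reads) in Control, a ratio of 1.44 (1.29 to 1.61). DNAJC10 (ERdj5), a disulfide reductase that unties proteins before degradation, lay on the other side of 1. It had 43.8 FPKM (2867 reads) in CEL and 59.3 FPKM (3340 reads) in Control, a ratio of 0.740 (0.703 to 0.778). DNAJC3 (p58IPK), a BiP co-chaperone that also inhibits eIF2α kinases, was at 18.7 FPKM in CEL and 16.1 FPKM in Control. DNAJB11 (ERdj3), a secreted and luminal partner of BiP, was at 14.5 FPKM in CEL and 15.6 FPKM in Control, with 23.2% of its exonic bases shared with other genes. DNAJB12 and DNAJB14, paired membrane proteins of the degradation pathway, were at 30.5 and 35.6 FPKM in CEL and at 30.5 and 32.4 FPKM in Control. Thus the co-chaperones of this compartment spread on both sides of 1, from 0.716 for DNAJC18, with 49 reads in CEL and 59 in Control, to DNAJC25. DNAJC18 had 2.82 FPKM in CEL and 3.95 FPKM in Control. DNAJC14 had 6.22 FPKM in CEL and 7.01 FPKM in Control, with 58.1% of its exonic bases shared with other genes, and DNAJC16 had 13.0 FPKM in CEL and 14.01 FPKM in Control. All 3 of these intervals held 1.

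Mitochondrial J proteins serve the matrix HSP70 HSPA9 (mortalin) in import and folding. DNAJA3 (TID1), the class A protein of the matrix, had 41.8 FPKM (975 reads) in CEL and 29.8 FPKM (598 reads) in Control, a ratio of 1.40 (1.27 to 1.56). DNAJC15 and DNAJC19, relatives of the yeast import factor Pam18, had 10.2 and 21.9 FPKM in CEL and 8.14 and 18.4 FPKM in Control. Their ratios were 1.25 (1.11 to 1.40) and 1.19 (1.01 to 1.40). DNAJC11, which associates with the complex that shapes cristae, had 47.7 FPKM in CEL and 46.9 FPKM in Control. DNAJC30 had 1.67 FPKM in CEL and 1.65 FPKM in Control, and DNAJC4 had 14.5 FPKM in both. The intervals of these 3 held 1, and they share 27.9%, 14.4% and 13.9% of their exonic bases with other genes. The group median was 0.13. DNAJC28 was not measured, with 3 reads in CEL and 2 in Control.

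Of the 5 members tied to ribosomes, RNA and chromatin, 5 had a log2 difference above 0, against 50.2% of all measured genes, with a median of 0.24. With the length trend removed, DNAJC8 stood at −0.04 and the other 4 remained above 0. DNAJC2 (MPP11), which forms the ribosome-associated complex with HSPA14, had 35.6 FPKM (918 reads) in CEL and 24.3 FPKM (540 reads) in Control, a ratio of 1.46 (1.32 to 1.63). DNAJC9, a histone chaperone, had 31.3 FPKM in CEL and 24.0 FPKM in Control, a ratio of 1.31 (1.15 to 1.48), and shares 29.1% of its exonic bases with neighbours such as MRPS16. The spliceosomal DNAJC8 (ENSG00000126698) had 166 FPKM (2808 reads) in CEL and 150 FPKM (2186 reads) in Control, a ratio of 1.11 (1.05 to 1.17). DNAJC21, which acts in maturation of the large ribosomal subunit, had 37.2 FPKM in CEL and 35.6 FPKM in Control. The splicing-linked DNAJC17 had 7.03 FPKM in CEL and 5.81 FPKM in Control and shares 26.1% of its exonic bases with other genes. Both intervals held 1. By the 1.5-fold rule 0 of the 5 were called.

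Of the 4 measured members that work on vesicle coats, synaptic vesicles and endosomes, 3 had a log2 difference below 0. This compares with 49.8% of all measured genes. The group median was −0.18. With the length trend removed, DNAJC13 stood at −0.24, DNAJC27 at −0.15, DNAJC6 at −0.14 and DNAJC5 at 0.15. DNAJC13 (RME-8), which clears clathrin and sorting complexes from endosomes, had 35.3 FPKM (1505 reads) in CEL and 43.4 FPKM (1595 reads) in Control, a ratio of 0.813 (0.757 to 0.873). The uncoating factor DNAJC6 (auxilin) had 7.96 FPKM in CEL and 9.21 FPKM in Control, and the RAB-like DNAJC27 had 5.71 FPKM in CEL and 6.56 FPKM in Control. Both intervals held 1. GAK, the widely expressed relative of auxilin outside the naming rule, had 39.6 FPKM in CEL and 50.3 FPKM in Control, a ratio of 0.787 (0.725 to 0.854), and was chosen after its value was seen. DNAJC5 (cysteine string protein alpha) had 49.99 FPKM (4529 reads) in CEL and 49.0 FPKM (3828 reads) in Control, a ratio of 1.02 (0.976 to 1.06). Its relatives DNAJC5B and DNAJC5G had 0 reads in both libraries, which for DNAJC5B allows a level of up to 0.125 FPKM in CEL and 0.145 FPKM in Control at 3 reads.

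Of the remaining members, DNAJC7, a tetratricopeptide protein that binds both HSP70 and HSP90, had 51.0 FPKM in CEL and 45.4 FPKM in Control. DNAJC24, which acts in diphthamide synthesis on elongation factor 2, had 22.1 FPKM in CEL and 17.9 FPKM in Control, a ratio of 1.23 (1.06 to 1.44). DNAJC22 had the lowest ratio of the family, with 1.66 FPKM (61 reads) in CEL and 2.87 FPKM (91 reads) in Control. The plain ratio was 0.578 (0.411 to 0.808), and the log2 difference of −0.54, which a pseudocount of 1 FPKM draws towards 0 at this level, did not reach the rule. DNAJC12 had 2 reads in CEL and 1 in Control, and DNAJB13 had 4 in CEL and 0 in Control.

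The difference between these libraries also varied with deposited gene length over all genes, and the members differ in this length. How the authors set it is not given in the sources used here. It need not be the length of the transcript in these cells. Ranks and shares between genes rest on it too. Over the 8377 genes that reached 10 FPKM in either library, the median log2 difference was 0.43 in the bin of the shortest genes (62 to 774 bases) and −0.13 in that of the longest (3727 to 11663 bases). Among the measured members, the 18 shorter ones (756 to 1681 bases) had a median of 0.26 with 16 above 0. The 18 longer ones (1873 to 5268 bases) had a median of −0.05 with 9 above 0. In the bins that cover the shorter range, the medians of all genes ran from 0.43 to −0.02. In those that cover the longer range, they ran from 0.00 to −0.13. After the median of genes of like length was subtracted, 21 of 36 members were above 0 and 15 below. Their median was 0.05, beside −0.04 over all measured genes, so 0 was not the midpoint of all genes. The shares of all genes above 0 that would match these counts are not given here. By the 1.5-fold rule 2 members were then higher and 0 lower, against 6.13% and 12.9% of all measured genes. DNAJB1, with a short deposited length of 851 bases, then stood at −0.05. DNAJA1 stood at −0.03, DNAJC8 at −0.04 and DNAJC11 at −0.06, so the small differences of these members turned sign. DNAJB4 stood at 0.69, DNAJC25 at 0.82, DNAJB6 at 0.48 and DNAJB9 at 0.45. DNAJC10, with a deposited length of 3802 bases, stood at −0.30.

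**Figure D4:**
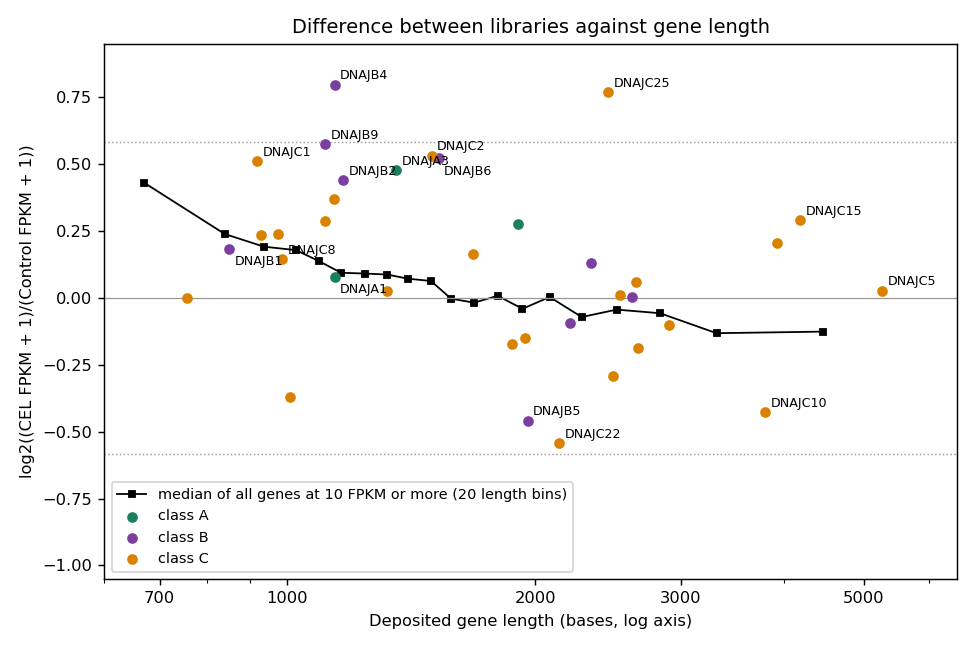
Difference log2((CEL FPKM + 1)/(Control FPKM + 1)) of the 36 measured DNAJ genes against deposited gene length in bases, with colours for class A, B and C, black squares for the median of all genes reaching 10 FPKM, in 20 length bins, and dotted lines at the 1.5-fold rule. DNAJB4 and DNAJC25 lie above the upper dotted line, while DNAJB1, DNAJA1 and DNAJC8 lie just under the black line.

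The rest of the HSP70 cycle was set beside the family with a list of HSP70 and HSP110 proteins, exchange factors, adaptors and J proteins under other names. The 35 symbols matched 36 rows, since HSPA14 has 2, and 31 rows were measured. By the 1.5-fold rule 5 of these 31 were higher in CEL and 0 were lower, against 8.97% and 10.2% of all measured genes. The counting interval lay above 1 for 21, below 1 for 6 and held 1 for 4. Over all measured genes it lay above 1 for 29.9% and below 1 for 29.1%. Intervals are narrower for abundant genes, and 28 of the 36 rows reached 10 FPKM in either library. Of all 8377 genes of that level, 3404 had an interval above 1 and 2704 one below 1. The median log2 difference of the 31 measured rows was 0.14, like that of the family, beside 0.00 over all measured genes. The higher ones were HSCB, BAG2, GRPEL1, 1 of the 2 HSPA14 rows and HSPA6. HSPA6 is among the 31 through its CEL level alone, so its call was favoured by the filter. With a filter at 5 FPKM the higher rows numbered 4. The split of reads between the 2 HSPA14 rows is uncertain. Besides the higher genes and the 3 most abundant genes (HSPA8, STIP1 and HSPA9), the partners given below were chosen by compartment after their values were seen.

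In mitochondria, HSPA9 had 449 FPKM in CEL and 320 FPKM in Control, a ratio of 1.40 (1.36 to 1.45), beside 1.40 for its co-chaperone DNAJA3. Its exchange factor GRPEL1 had 59.4 FPKM in CEL and 33.3 FPKM in Control, a ratio of 1.78 (1.63 to 1.94). The second exchange factor, GRPEL2, had a ratio of 0.876 (0.781 to 0.983). HSCB, the J protein of iron-sulfur cluster transfer, had 7.44 FPKM (109 reads) in CEL and 3.25 FPKM (41 reads) in Control, a ratio of 2.29 (1.59 to 3.37). Of these 4 nuclear genes for mitochondrial partners, 3 had intervals above 1 and GRPEL2 had one below 1. Over all measured genes, 29.9% had an interval above 1 and 29.1% one below 1. The grouping by compartment was made after the values were seen, so this count is a description only. The part of the smaller share of mitochondrially encoded reads in CEL was not tested.

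In the endoplasmic reticulum, HSPA5 had 255 FPKM in CEL and 273 FPKM in Control, a ratio of 0.935 (0.915 to 0.956). The HSP110 relative HYOU1 had 176 FPKM in CEL and 214 FPKM in Control, a ratio of 0.822 (0.790 to 0.854). The translocon J protein SEC63 had a ratio of 1.26 (1.18 to 1.35) and the exchange factor SIL1 one of 1.21 (1.05 to 1.40). DNAJB9, with its ratio of 1.52, and HSPA5 thus lay on opposite sides of 1.

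In the cytosol, the constitutive HSP70 HSPA8 was by far the most abundant gene of the list, with 2197 FPKM in CEL and 2105 FPKM in Control, a ratio of 1.04 (1.03 to 1.06). The adaptor STIP1, which hands clients from HSP70 to HSP90, had 506 FPKM in CEL and 466 FPKM in Control. BAG2, which holds back the ubiquitin ligase STUB1, had 17.3 FPKM in CEL and 9.41 FPKM in Control, a ratio of 1.84 (1.70 to 1.99). The strictly heat-inducible HSPA6 had 47 reads in CEL and 15 in Control, or 1.16 FPKM in CEL and 0.430 FPKM in Control, a ratio of 2.70 (1.48 to 5.20). It passed the 1 FPKM filter through CEL alone, and it was not called with a pseudocount of 5 FPKM, a filter at 5 FPKM or upper quartile scaling. On the other side of 1, BAG6 had 164 FPKM in CEL and 202 FPKM in Control, a ratio of 0.814 (0.778 to 0.851), and HSPA12A had 9.02 FPKM in CEL and 10.9 FPKM in Control, a ratio of 0.831 (0.747 to 0.925). The inducible pair HSPA1A and HSPA1B had 1 and 0 reads in CEL and 0 and 0 in Control. They are near-identical copies whose reads the authors' counting could split or drop, so these values are uncertain. HSPA14, the partner of DNAJC2, had 54.2 FPKM in CEL and 29.3 FPKM in Control in the higher of its 2 rows, ratio 1.85 (1.66 to 2.07), and 17.6 FPKM in CEL and 12.8 FPKM in Control in the other, and the split of reads between these rows is uncertain.

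**Figure D5:**
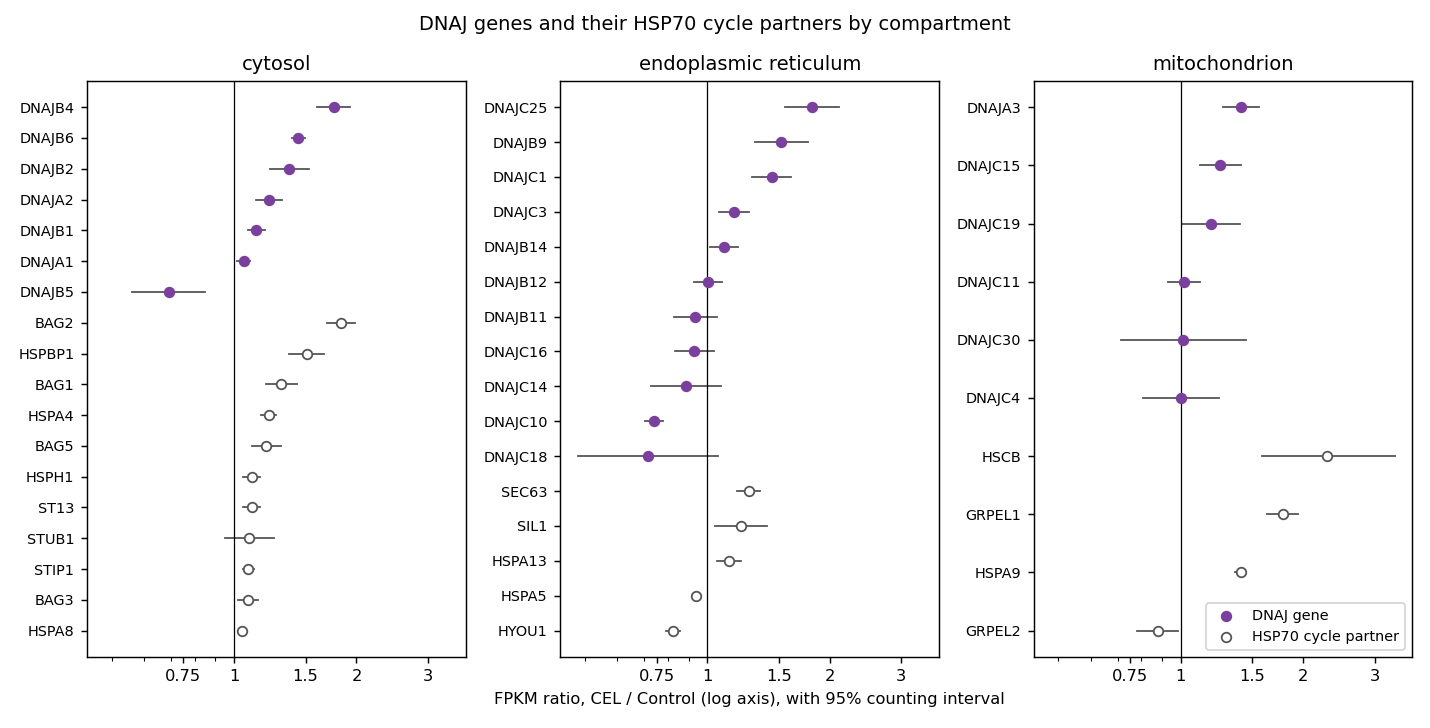
FPKM ratio of CEL over Control on a log axis with 95% counting intervals, for DNAJ genes (filled) and HSP70 cycle partners (open) in the cytosol, endoplasmic reticulum and mitochondrion. The plotted partners are part of the list and leave out BAG6 and HSPA12A. In the cytosol they include HSPA8 at 1.04 and BAG2 at 1.84. Of the listed genes, HSPA6 at 2.70 and the higher HSPA14 row at 1.85 stood above BAG2. Partners in the endoplasmic reticulum range from 0.822 for HYOU1 to 1.26 for SEC63. Those in the mitochondrion range from 0.876 for GRPEL2 to 2.29 for HSCB.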

How the data were processed

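RNA of 2 MDA-MB-231 cultures, 1 per group, was extracted with TRIzol and sequenced from NEBNext Ultra libraries, per the labels' protocols. The submitters' processing notes name HTSeq 0.5.4 and GRCh38. The aligner, annotation release and strand setting were not given in the sources used here. Without the strand setting, a gene and an overlapping gene on the opposite strand cannot be told apart. The authors deposited FPKM and a gene length in 1 table for both libraries. Whole reads were recovered as FPKM times length over a fixed step, directly for 68.7% of 24783 detected genes and at a length shared by both libraries, to a relative tolerance of 1e-06, for the other 31.3%. They summed to 100% of each library total. Rows without a gene name (354, 0.265% of CEL and 0.298% of Control reads) were not used.

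Genes that reached 1 FPKM in either library were counted by size on log2(FPKM + 1), which understates changes of low genes. With 1 library per group no p-value was made. The members, lists and motifs were chosen with earlier results of these data known, and the compartments and motifs after the values were seen. Full values are given for members past the 1.5-fold rule and the 5 most abundant, other measured members get FPKM in both libraries by role, and the rest are counted and named. From the HSP70 cycle list, genes past the rule and the 3 most abundant are named. Exon overlap came from GENCODE 29, in which all 45 members matched by identifier and 20 had the same coordinates. Promoter sequences are those of RefSeq (GRCh38.p14). On simulated data for 23549 genes, reads were recovered for 99.996% of the genes and 97.0% of counting intervals held the true ratio. The simulated reads were Poisson draws without duplicates or variation between cultures. This checks the computation only, and not how the intervals hold for these libraries. Alternatives were the pseudocount, the filter, TPM and upper quartile scaling, median centring, removal of the length trend and, added after the data were seen, leaving out members that share exonic bases. Plots were drawn with matplotlib 3.10.9, and scipy 1.17.1, pandas 2.3.3 and numpy 2.4.6 ran under Python 3.11.15.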

Additional observations from a re-analysis of the deposited data

How the results depend on the processing

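The count of 2 members at least 1.5-fold higher was 1 (DNAJB4) with a pseudocount of 5 FPKM and also 1 when members sharing 10% or more of their exonic bases with another gene were left out, which removes DNAJC25. With a pseudocount of 0.1 FPKM it was 3, adding DNAJB9. The count of 0 lower members was 1 (DNAJC22) with a pseudocount of 0.1 FPKM and 1 on the TPM scale. In the HSP70 cycle list, the higher genes numbered 4 to 6 and the lower ones 0 under each of the 8 planned settings. The median of the members ranged from 0.05 without the length trend to 0.16 with a filter at 5 FPKM over the planned settings. Under these the class medians ranged from 0.24 to 0.37 in class A, from 0.14 to 0.19 in class B and from 0.01 to 0.15 in class C. Relative to the median of all genes in the same setting, the median of the members was 0.10 higher without the length trend and between 0.13 and 0.15 higher in the other planned settings. Of 36 members, 29 kept the sign of their log2 difference in every planned setting that gave them a value, and 7 (DNAJA1, DNAJB1, DNAJB12, DNAJC5, DNAJC8, DNAJC11 and DNAJC30), all with small differences, did not. No paired analysis was possible because each group holds 1 library. Leaving out a replicate was not possible for the same reason. Depth limits the members under 5 FPKM: DNAJC18 had 49 reads in CEL and 59 in Control, DNAJC22 had 61 in CEL and 91 in Control, and DNAJC30 had 73 in CEL and 62 in Control.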

Other observations

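The rows with DNAJ in their name that the rule leaves out were nearly silent. Of 18 DNAJ pseudogenes, 14 had 0 reads in both libraries, and the rest summed to 14 reads in CEL and 1 read in Control. The 6 pseudogenes of DNAJA1 held 6 reads in CEL and 0 in Control, beside 6609 reads in CEL and 5393 in Control for DNAJA1 itself, and the 9 of DNAJC19 held 6 in CEL and 0 in Control, beside 350 in CEL and 254 in Control for DNAJC19. How multiply mapped reads were shared between these copies is not given in the sources used here. The antisense and divergent RNAs stayed under 0.5 FPKM, with DNAJC3-DT at 0.379 FPKM in CEL and 0.477 FPKM in Control and DNAJC9-AS1 at 0.280 FPKM in CEL and 0.446 FPKM in Control.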
